A study of Mus musculus with 32 samples.

Results

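The nuclear-encoded subunits of respiratory complex III (Uqcr genes), complex IV (cytochrome c oxidase, Cox4 to Cox8 genes) and ATP synthase (Atp5 genes) were described across muscle and genotype. A gene belonged to the set when its Ensembl identifier mapped to a protein-coding nuclear gene whose symbol begins with Uqcr, Cox4, Cox5, Cox6, Cox7, Cox8 or Atp5. This gave 44 of the 55487 genes in the table, of which 8 belonged to complex III, 18 to complex IV and 18 to ATP synthase. Cox7b2, Cox8c and the second of the 2 identifiers named Atp5o had 0 counts in all 32 libraries, and Cox6b2 passed the filter on low counts only where soleus libraries were fitted. The tests therefore covered 40 members in gastrocnemius and 41 in soleus, and Atp5o below means ENSMUSG00000022956.

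Complex III passes electrons from ubiquinol to cytochrome c, complex IV passes them on to oxygen, and both pump protons out of the mitochondrial matrix. ATP synthase lets the protons return through a rotating ring of c subunits and couples that rotation to the making of ATP in its catalytic head. The nuclear genes supply most of the subunits, a few are encoded in mitochondrial DNA, and several complex IV subunits exist in a heart and skeletal muscle form and a general form. Slow, oxidative fibres are rich in mitochondria and fast, glycolytic fibres have fewer.

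The libraries were polyA RNA-seq of whole left muscle of 16 mice, the gastrocnemius medialis, which is mainly fast, and the soleus, which is mainly slow. Each of 4 genotypes had 4 mice, which gave 8 groups of 4 libraries. The groups were control, knockout of Acvr1b, knockout of Tgfbr1, and knockout of both, called the double knockout here. Acvr1b and Tgfbr1 are type I receptors of the TGF-β family, and the labels state that deletion was limited to myofibres. The labels place the tamoxifen injections at 6 weeks of age and the dissection 3 months after them. They do not name the Cre driver, the floxed alleles or what the control mice carried. The double-knockout mice carry animal numbers from another range than the remaining 12, and the control numbers lie above those of all single knockouts. For the double knockout and the control, a difference between sets of mice and an effect of genotype therefore cannot be told apart.

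Levels are given in CPM, a count scaled to a common library total, on a TMM scale shared by the 32 libraries. Library totals ran from 16535498 to 54456977 counts, and the members together took 0.65 to 1.18% of the counts in gastrocnemius and 1.25 to 2.12% in soleus. Acvr1b itself was at 94.2 to 117 CPM in control gastrocnemius, 23.7 to 27.2 in the Acvr1b knockout and 14.03 to 23.3 in the double knockout. Tgfbr1 was not lower in the libraries labelled as its knockout, with 24.6 to 31.8 CPM in gastrocnemius against 22.9 to 37.5 in control and 38.4 to 56.3 in the double knockout. In soleus Acvr1b was at 29.1 to 45.97 CPM in control, 11.07 to 13.9 in the Acvr1b knockout and 6.93 to 10.05 in the double knockout, and Tgfbr1 at 13.6 to 17.2 in control, 12.8 to 18.99 in its knockout and 14.7 to 51.2 in the double knockout. A count per gene cannot tell if an exon was deleted, so the group names used here are those of the labels and every direction rests on them. The fast myosin Myh4 was at 70136 to 95315 CPM in control gastrocnemius and 683 to 3638 in control soleus. The slow myosin Myh7 was at 634.5 to 1036.5 and 6632 to 9309 CPM. The library of gastrocnemius control 1 stood apart, with 25.99% of its counts from mitochondrially encoded genes against 10.35 to 13.88% in the other controls of that muscle.

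Per kilobase of joined exons, the complex IV messages in control muscle were led by 2 muscle isoforms, an order that depends on the length used. In CPM, Cox4i1 (452 in control gastrocnemius) lay above Cox6a2 (332). Cox6a2, the heart and skeletal muscle form of subunit VIa, had 488 ± 38.5 CPM per kilobase of exon in gastrocnemius (SD, n = 4) and 777 ± 97.8 in soleus. Cox8b, the muscle form of subunit VIII, had 476 ± 108 and 760 ± 85.8, and the libraries of these 2 genes overlapped in both muscles. Their general counterparts were far lower, with 11.4 CPM per kilobase for Cox6a1 and 17.2 for Cox8a in gastrocnemius. Cox4i2, the subunit IV form known from lung, was at 1.33 and Cox6b2, a form known from testis, at 0.122.

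In ATP synthase, Atp5a1 and Atp5b, the alpha and beta subunits of the catalytic head, were the highest in gastrocnemius with 593 ± 74.5 and 491 ± 79.7 CPM per kilobase (SD, n = 4). Atp5s, which encodes the coupling protein factor B, was the lowest detected member of this complex with 5.32. In complex III, Uqcr10, a small subunit, and Uqcrfs1, the Rieske iron-sulfur protein, led with 230 ± 56.3 and 218 ± 47.1 and overlapped. These lengths join all annotated exons of a gene. With the length of the principal transcript the order changed, with Atp5b at 1086 above Atp5a1 at 752, Cox4i1 at 606 above Cox6a2, and Uqcrh at 373 above Uqcr10, so ranks near each other depend on the gene model.

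Several members share a short sequence before the transcription start, and a few of these stretches are shown because the same genes differ in what they did in the muscles. RefSeq (GRCm38.p6) gave a window of 250 bases before to 50 after the start for 28 of the 44 members. The stretches below run from 150 bases before the start to 10 bases from it, 5′ to 3′ on the gene's strand, and capitals mark the ETS-type motif CCGGAAG or its reverse complement CTTCCGG. Uqcrh, Cox6b1 and Atp5h are the 3 of 10 tested members with the motif that fell in double-knockout gastrocnemius. Cox8a, the general form of subunit VIII, is 1 of those with the motif that did not. Of the 16 tested members without the motif 5 also fell, and these are not shown. Cox8b, its muscle form, held no match to any motif searched.
Uqcrh (chr4:116075061-116075220, minus strand): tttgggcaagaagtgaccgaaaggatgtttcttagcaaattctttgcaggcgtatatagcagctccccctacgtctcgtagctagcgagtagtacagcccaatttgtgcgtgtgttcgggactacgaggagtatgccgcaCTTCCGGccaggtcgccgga
Cox6b1 (chr7:30626105-30626264, minus strand): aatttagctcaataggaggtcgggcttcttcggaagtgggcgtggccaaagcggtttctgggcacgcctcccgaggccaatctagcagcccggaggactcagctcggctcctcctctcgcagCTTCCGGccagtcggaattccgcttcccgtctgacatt
Atp5h (chr11:115419910-115420069, minus strand): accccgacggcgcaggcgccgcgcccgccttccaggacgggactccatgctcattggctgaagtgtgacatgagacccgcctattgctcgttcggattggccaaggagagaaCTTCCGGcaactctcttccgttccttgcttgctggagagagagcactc
Cox8a (chr19:7217607-7217766, minus strand): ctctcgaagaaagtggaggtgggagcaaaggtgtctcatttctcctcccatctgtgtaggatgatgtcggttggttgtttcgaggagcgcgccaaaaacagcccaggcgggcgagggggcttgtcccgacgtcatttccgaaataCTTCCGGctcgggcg
Cox8b (chr7:140900437-140900596, minus strand): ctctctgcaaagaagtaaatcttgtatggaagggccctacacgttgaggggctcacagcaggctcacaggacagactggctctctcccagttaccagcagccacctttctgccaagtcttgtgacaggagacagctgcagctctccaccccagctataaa
In these lines the first base of the motif lies 10 bases before the start in Uqcrh, 28 in Cox6b1, 38 in Atp5h and 5 in Cox8a.

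The ETS-type motif, on either strand, was in the windows of 10 of 28 members (35.7%) and of 12.95% of 17492 protein-coding genes. The members were Atp5e, Atp5h, Atp5j, Atp5k, Atp5l, Cox6a1, Cox6b1, Cox8a, Uqcr11 and Uqcrh. The NRF1 motif GCGCATGC, whose reverse complement GCATGCGC overlaps it, was in 5 of 28 (17.9%, against 3.94% of all genes), namely Atp5k, Atp5l, Cox6a1, Uqcr11 and Uqcrc1. The YY1 motif AAGATGGC was in 3 (10.7%, against 3.57%) and the Sp1 motif GGGCGG in 8 (28.6%, against 49.23%). The ERR motif TCAAGGTCA and the MEF2 motif CTAAAAATA were in 0 of 28, and in 0.38% and 0.47% of all genes. A match describes letters in this window only.

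In double-knockout gastrocnemius, 13 of the 40 tested members fell against control and 0 rose (32.5%; 20.9% of all 17536 genes passed the test in either direction and 9.59% were lower). The losses reached all 3 complexes, with 2 of 8 tested members of complex III, 6 of 15 of complex IV and 5 of 17 of ATP synthase. The sizes were modest, from -0.25 to -0.46 on the log2 scale. Of the 40 members, 38 had a negative estimate and the median was -0.24, against 0 over all genes tested. In 14 members the 4 double-knockout libraries all lay below the 4 controls, which was so for 10.9% of all genes. In RNA from whole muscle, fewer cells of a type and less RNA per cell cannot be told apart.

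In complex III the members that fell were 2 small subunits. Uqcrh (ENSMUSG00000063882), the hinge protein beside cytochrome c1, was at 226, 208, 172 and 209 CPM in gastrocnemius control 1 to 4 and at 149, 146, 140 and 156 in double knockout 1 to 4. The lowest control lay above the highest double knockout. Its log2 change was -0.46 (SE 0.0996, adjusted p = 0.0037, edgeR quasi-likelihood test with Benjamini-Hochberg adjustment). Uqcrb, the ubiquinone-binding subunit, was at 166, 130, 123 and 127 CPM in control and 102.3, 110, 98.1 and 104 in the double knockout. These libraries did not overlap either, and the change was -0.39 (SE 0.101, edgeR adjusted p = 0.0120). The core proteins Uqcrc1 and Uqcrc2 and Uqcrfs1 did not pass, with a log2 change of -0.18 for Uqcrc2 (edgeR adjusted p = 0.0599) and -0.26 for Uqcrfs1.

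In complex IV the members that fell were 3 general forms, Cox4i1, Cox6b1 and Cox7b, and 3 of the 4 subunits that have a single gene, Cox5a, Cox5b and Cox6c. Cox4i1 (ENSMUSG00000031818), the general form of the regulatory subunit IV, was at 371, 505, 425 and 505 CPM in control and 359, 303, 325 and 355 in the double knockout. The groups did not overlap, though gastrocnemius control 1 was close to the highest double-knockout library, and the change was -0.41 (SE 0.103, edgeR adjusted p = 0.00873). Cox6b1, which faces the intermembrane space and bridges the dimer, was at 224, 260, 225 and 259 CPM in control and 198, 177, 182 and 193 in the double knockout. Again no library overlapped, and it fell by 0.36 (SE 0.094, edgeR adjusted p = 0.0127). Cox7b was at 190, 229, 205 and 229 against 166, 168, 165 and 172 CPM, a change of -0.33 (SE 0.077, edgeR adjusted p = 0.00538). Cox6c fell by 0.33 (edgeR adjusted p = 0.00251) and Cox5b by 0.28 (0.0326), the latter lost without control 2 or 4 or double knockout 2 or 3.

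Cox5a, a subunit on the matrix side, rested on a less even set of libraries. It was at 228, 346, 303 and 337 CPM in control and 231, 229, 235 and 255 in the double knockout, so that gastrocnemius control 1 lay just below the lowest double-knockout library and the other 3 controls above all 4. Its change of -0.34 (SE 0.111, edgeR adjusted p = 0.0385) no longer passed when any library but control 1 was left out, with an adjusted p of up to 0.1149. Neither Cox5a nor Atp5a1 passed when only the control and double-knockout groups were fitted.

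The 3 muscle isoforms of complex IV did not pass the test in gastrocnemius. Cox6a2 was at 305, 353, 314 and 355 CPM in control and 266, 314, 348 and 353 in the double knockout, which overlap, with double knockout 1 below every control (log2 change -0.04, edgeR adjusted p = 0.795). Cox8b was at 114, 194, 180 and 198 against 143, 147, 174 and 179 CPM (-0.08, edgeR adjusted p = 0.723). Every double-knockout library lay above gastrocnemius control 1 and below the other controls, so the overlap rests on control 1. With 1 library left out the Cox8b change ran from -0.2367 to -0.0117, with a lowest edgeR adjusted p of 0.0964. Cox7a1, the muscle form of subunit VIIa, was at 80.4, 121, 99.4 and 122 against 82.2, 70.8, 84.6 and 88.7 CPM. Its change was -0.36 (edgeR adjusted p = 0.0698), and it passed without gastrocnemius control 1. The general forms Cox6a1, Cox7a2 and Cox8a had log2 changes of -0.08, -0.24 and 0.15, none of them past the threshold with all libraries. With 1 library left out, the lowest edgeR adjusted p of Cox7a2 was 0.0427. The scarce form Cox4i2 was at 1.01 to 1.10 CPM in control and 0.606 to 0.882 in the double knockout, groups that did not overlap, with a change of -0.58 (edgeR adjusted p = 0.0619) that passed without double knockout 2. Cox7a2l, a factor that joins complexes III and IV in supercomplexes, changed by -0.17 (edgeR adjusted p = 0.0538). Its lowest edgeR adjusted p with 1 library left out was also 0.0427.

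In ATP synthase, 2 of 5 tested members of the catalytic head and central stalk and 3 of 4 of the peripheral stalk, which holds the head still while the ring turns, fell. Atp5o (chr16:91925214-91931687), the oligomycin sensitivity protein at the top of the peripheral stalk, was at 138, 155, 130 and 155 CPM in control and 104, 105, 99.1 and 110 in the double knockout. The groups lay well apart, and the change was -0.46 (SE 0.0795, edgeR adjusted p = 0.000644). Atp5c1, the gamma subunit that forms the central shaft, was at 467, 500, 447 and 502 against 373, 378, 359 and 378 CPM, again without overlap. It changed by -0.35 (SE 0.062, edgeR adjusted p = 0.000728).

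Atp5h, subunit d of the peripheral stalk, was at 177, 195, 164 and 197 CPM in control and 139, 139, 143 and 154 in the double knockout, with no overlap (log2 change -0.34, SE 0.0748, edgeR adjusted p = 0.0039). Atp5a1 was at 1640, 2006, 1678 and 2107 against 1383, 1476, 1500 and 1602 CPM, also without overlap (-0.30, SE 0.0805, edgeR adjusted p = 0.0128). Atp5f1, subunit b, fell by 0.25 (edgeR adjusted p = 0.0468), a call lost without any 1 of the 8 libraries but control 3. Atp5b, the catalytic partner of Atp5a1, did not pass (-0.21, edgeR adjusted p = 0.155). With all libraries, none of the 3 genes for the c ring (Atp5g1, Atp5g2, Atp5g3; median -0.18) passed the same edgeR test. None of the 4 accessory membrane subunits (median -0.16) did either. The c-ring result depended on single libraries. With 1 left out, the lowest edgeR adjusted p was 0.0153 for Atp5g2, 0.0158 for Atp5g3 and 0.087 for Atp5g1. Atp5s was the member with the highest estimate, at 13.5, 9.07, 11.5 and 9.27 CPM in control and 11.5, 14.7, 14.4 and 12.3 in the double knockout (0.30, edgeR adjusted p = 0.131).

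**Figure D1:**
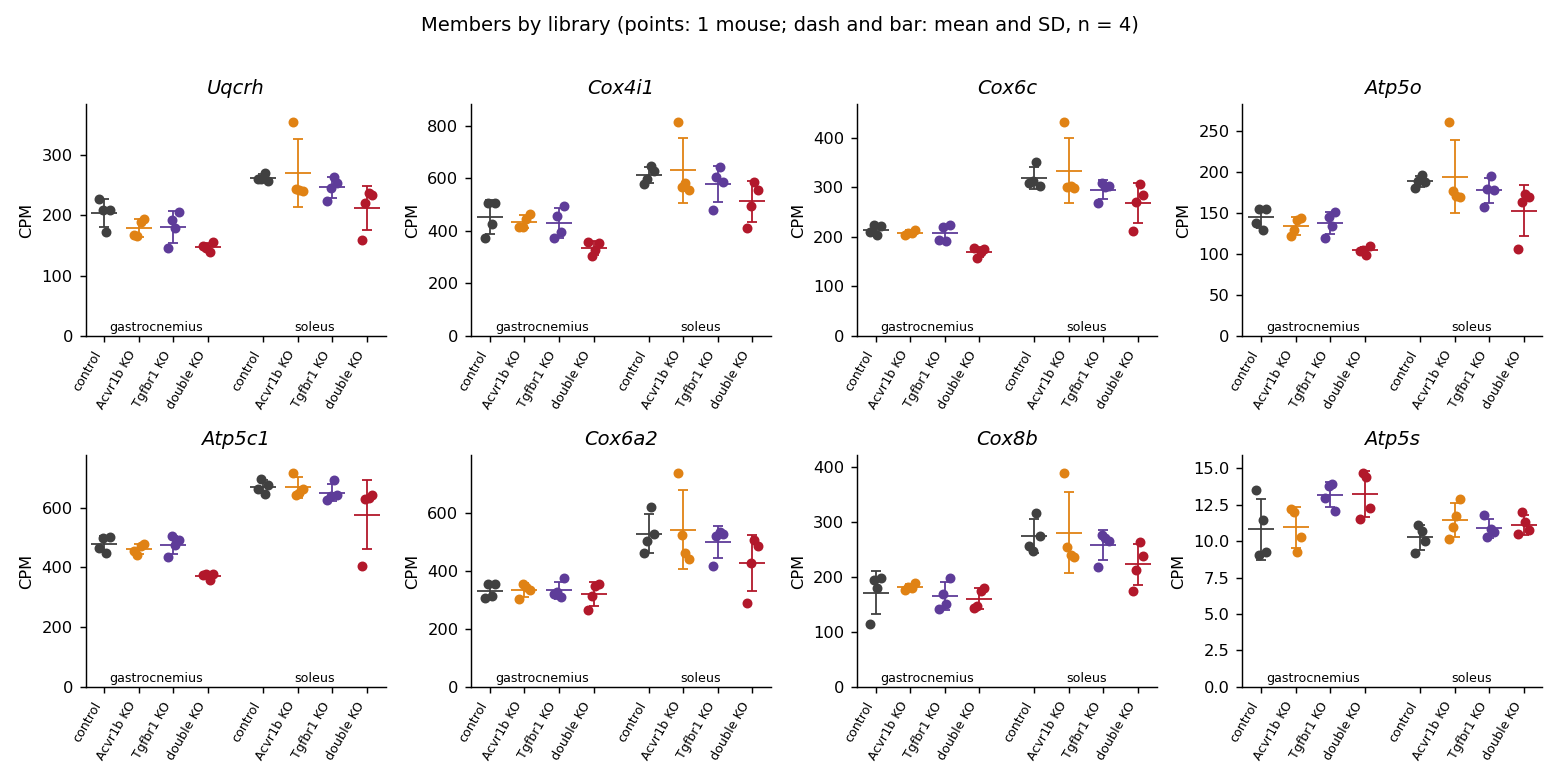
CPM of Uqcrh, Cox4i1, Cox6c, Atp5o, Atp5c1, Cox6a2, Cox8b and Atp5s in each of the 32 libraries, by group; each point is a mouse, and the dash and bar are the group mean and SD (n = 4). In gastrocnemius the double-knockout points of Uqcrh, Atp5o and Atp5c1 lie below every control. Those of Cox8b lie above control 1 and below the other controls. Those of Cox6a2 overlap the range of the controls, with double knockout 1 below it.

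The count depended on gastrocnemius control 1, which was the lowest control for 28 of the 40 tested members and the highest for 6, among them Uqcrh and Uqcrb. Without it 27 members passed, of which 26 fell and Atp5s rose (log2 change 0.43), with a median of -0.33 and 21.8% of all genes called. Uqcrh, Uqcrb, Cox4i1, Cox6b1, Cox7b, Cox6c, Atp5o, Atp5c1, Atp5h and Atp5a1 each passed with any 1 of the 8 libraries left out. Reads that align to several places were split as fractions, so members with near-identical copies share reads with them. The pseudogenes Uqcrh-ps1 (-0.46), Uqcrh-ps2 (-0.58) and Cox6c2 (-0.34) also passed. Of the 17 tested members with whole counts in at least 17 libraries 17.6% passed, namely Atp5a1, Atp5o and Cox6b1, all lower. Over all genes 20.9% passed in either direction and 9.59% were lower. Most of the called members thus had fractional counts in at least 16 libraries.

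Where a window was at hand, 3 of 10 tested members with the ETS-type motif fell in double-knockout gastrocnemius (median log2 change -0.24) and 5 of 16 without it (median -0.24), where 9.59% of all genes were lower. With the NRF1 motif it was 0 of 5 by edgeR's test (median -0.19, 2 at an unadjusted p under 0.05, 0 by DESeq2), and without it 8 of 21 (median -0.25). With the YY1 motif 1 of 3 fell (median -0.13) and without it 7 of 23 (median -0.25), and with the Sp1 motif 1 of 6 (median -0.17) and without it 7 of 20 (median -0.25). Whether these shares differ was not tested.

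Few of the other genes of these complexes passed in gastrocnemius, where 20.9% of all genes did. Cyc1, the cytochrome c1 of complex III, and Ndufa4, a complex IV subunit outside the symbol rule, changed by -0.16 and -0.23 and did not pass. By edgeR's test 0 of 6 complex III assembly factors passed (median 0.064, 2 at an unadjusted p under 0.05, 1 called by DESeq2), and 0 of 5 ATP synthase assembly and inhibition factors (median 0.001, 1 and 0). Of 22 complex IV assembly factors, Cox11 (log2 change 0.46, edgeR adjusted p = 0.000768) and Coa5 (0.47, 0.00214) rose and Cox10 (-0.30, 0.0472) fell. The 6 mitochondrially encoded subunits of these complexes had a median of -0.40, and 0 passed edgeR's test, with 0 at an unadjusted p under 0.05 and 0 called by DESeq2. All mitochondrially encoded genes together took 25.99, 10.85, 13.88 and 10.35% of the counts in control 1 to 4. In double knockout 1 to 4 they took 14.11, 14.88, 12.92 and 13.19%, so only control 1 lay above every double knockout. Among 12 transcriptional regulators of mitochondrial genes, Ppara (-1.29, edgeR adjusted p = 0.00121), Ppargc1a (-1.07, 0.000575) and Esrrg (-0.54, 0.00509) fell.

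Markers of fibre types and of other cells were counted in the same libraries. The share of all genes that passed edgeR's test was 20.9% in either direction and 9.59% lower. Of 6 slow-fibre genes 5 fell, with a summed level of 1313 to 2071 CPM in control and 598 to 1073 in the double knockout. Of 6 fast-fibre genes 3 fell and 1 rose, with sums of 113420 to 150352 and 90812 to 107029 CPM. Endothelial markers fell in 3 of 6 (204 to 218 against 159 to 187 CPM) and markers of pericytes and vascular smooth muscle in 3 of 9 (569 to 743 against 447 to 571 CPM). Macrophage markers rose in 4 of 6 (36.1 to 42.1 against 48.6 to 81.7 CPM) and fibroblast markers in 2 of 6. Of 4 erythroid genes 4 fell, of 6 adipocyte genes 2 fell, and of 6 Schwann cell genes 0 passed edgeR's test (2 at an unadjusted p under 0.05, 0 by DESeq2). Of 4 brown adipocyte genes 2 could be tested, of which Cidea rose (1.61, edgeR adjusted p = 0.0033) and Dio2 did not pass (0.35), and the summed level of the 4 was 2.48 to 3.85 CPM in control and 5.26 to 6.22 in the double knockout. Ucp1, the defining gene of that list, was at 0 in all 8 of these libraries. The part of these cells in the fall of the subunit messages was not tested.

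Against the single knockouts, the double-knockout gastrocnemius was lower for the same 8 members, all of them also lower than control. Against the Acvr1b knockout 8 of 40 fell and 0 rose (16.3% of all genes were called and 7.06% were lower), and against the Tgfbr1 knockout 8 of 40 fell and 0 rose (12.9% and 5.42%). Both comparisons use the same double-knockout libraries and are not independent. The 8 were Cox4i1, Cox5a, Cox6c and Cox7b of complex IV and Atp5a1, Atp5c1, Atp5h and Atp5o of ATP synthase, and complex III had 0 of 8 in both by edgeR's test, with 5 at an unadjusted p under 0.05 in each. DESeq2 called 9 and 10 of the 40 members.

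Cox6c, a small complex IV subunit, was at 204, 209, 208 and 214 CPM in the Acvr1b knockout, at 194, 221, 192 and 224 in the Tgfbr1 knockout and at 177, 156, 168 and 176 in the double knockout. Every double-knockout library lay below all 8 single-knockout libraries, with changes of -0.29 (edgeR adjusted p = 0.00732) and -0.28 (0.0125). Atp5c1 was at 455, 441, 471 and 479 CPM in the Acvr1b knockout and 435, 504, 474 and 491 in the Tgfbr1 knockout, again above each double-knockout library. Its changes were -0.30 (edgeR adjusted p = 0.00302) and -0.34 (0.00163). Atp5o was at 121, 130, 141 and 144 CPM and at 120, 145, 134 and 151, and the double knockout differed by -0.35 (edgeR adjusted p = 0.0057) and -0.39 (0.0042).

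The remaining 5 changed by -0.24 (Atp5h) to -0.39 (Cox5a) against the Acvr1b knockout and by -0.30 (Atp5h) to -0.40 (Cox5a) against the Tgfbr1 knockout. In 24 members the double-knockout libraries lay below every Acvr1b-knockout library (13.7% of all genes) and in 14 below every Tgfbr1-knockout library (8.04%). The number of members called against the Acvr1b knockout was 5 without Acvr1b knockout 3 or 4 or double knockout 2 or 3, and 23 when only those 2 groups were fitted. The number called against the Tgfbr1 knockout was 15 without Tgfbr1 knockout 1. Against the Acvr1b knockout, Cox4i1, Cox5a and Atp5h each lost their call without Acvr1b knockout 3 or 4 or double knockout 2 or 3, and Atp5h also without double knockout 1. Against the Tgfbr1 knockout, Cox4i1 and Cox5a lost theirs without Tgfbr1 knockout 2 or 4 or double knockout 2 or 3, and Cox4i1 also without double knockout 4. The other 5 of the 8 members in the first comparison and the other 6 in the second passed with any 1 library left out.

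The single knockouts themselves showed no member past the threshold. By edgeR's test 0 of 40 members were called in gastrocnemius in either single knockout, 0 reached an unadjusted p of 0.05, and DESeq2 called 0 (0.0285% of all genes were called in the Acvr1b knockout and 0.171% in the Tgfbr1 knockout). The median log2 change was -0.01 and -0.012. Uqcrh had the largest shift among complex III members, -0.18 in each (edgeR adjusted p = 0.9998 and 0.8929). Atp5s had the largest shift of any member in the Tgfbr1 knockout, 0.28 (edgeR adjusted p = 0.8363), and changed by 0.017 in the Acvr1b knockout. The double knockout differed from the Tgfbr1 knockout by 0.018 in Atp5s. The 2 members of each complex with the highest level per length changed by little in the Acvr1b and the Tgfbr1 knockout, Uqcr10 by 0.046 and -0.016, Uqcrfs1 0.028 and 0.061, Cox6a2 0.012 and 0.0059, Cox8b 0.09 and -0.049, Atp5a1 0.0035 and 0.052, and Atp5b 0.018 and 0.023. In soleus 0 of 41 were called in either (0.022% and 0.0496% of all genes), with 0 at an unadjusted p under 0.05, 0 by DESeq2 and medians of 0.055 and -0.059.

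The departure from additivity asks whether the double knockout differs from the sum of the 2 single effects. In gastrocnemius 0 of 40 members were called by edgeR (2.14% of all genes), 8 were under an unadjusted p of 0.05, and 1 was called by DESeq2. The estimate was negative in 38 of 40 with a median of -0.22. The smallest adjusted p was that of Atp5c1 (-0.29, SE 0.0876, edgeR adjusted p = 0.09839), followed by Atp5a1 (-0.36, 0.1182). In soleus edgeR called 0 of 41 (0% of all genes), with 0 at an unadjusted p under 0.05, and DESeq2 called 0.

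**Figure D2:**
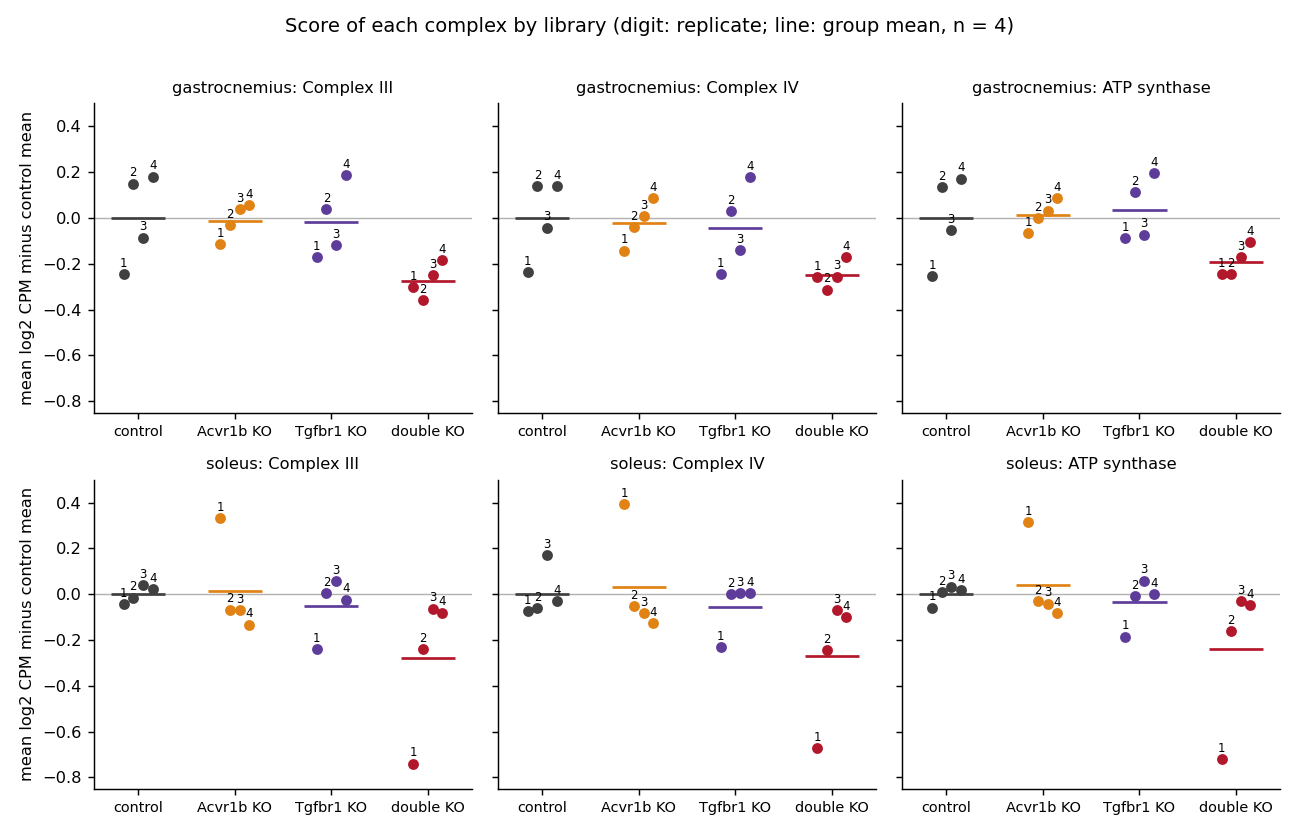
Mean over the members of each complex of log2 CPM minus the control mean of that muscle, for each library by group; digits are replicate numbers and lines are group means. In gastrocnemius the complex IV value of the double knockouts ran from -0.313 to -0.171 and control 1 was at -0.236, and in soleus double knockout 1 was at -0.673 and Acvr1b knockout 1 at 0.392.

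In double-knockout soleus 0 of 41 members passed the edgeR test against control (0.722% of all genes did), an unadjusted p under 0.05 was seen in 0, and 0 were called by DESeq2. The estimates were negative for 40 of 41, with a median of -0.25 against 0.035 over all genes and a range of -0.51 to 0.13. The smallest adjusted p was 0.422, that of Uqcrh. In 14 members the double-knockout libraries all lay below the controls (4.38% of all genes). Atp5s was the only member with a positive estimate, 0.13.

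The soleus values were spread by 1 library. Double knockout 1 was the lowest of its group for 40 of the 41 members, and its mean over all members was -0.706 on the log2 scale, against -0.208, -0.051 and -0.075 in double knockout 2 to 4. Uqcrh was at 259.8, 260.8, 270.9 and 257.2 CPM in control soleus and at 159.1, 221.2, 237.2 and 233.8 in the double knockout. Atp5o was at 180.8, 189.1, 196.9 and 188.5 against 106.4, 164.0, 172.8 and 169.2 CPM. Both genes were lower in all 4 double-knockout libraries, and by far the most in double knockout 1.

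Cox6a2 overlapped, with 462.9, 503.4, 619.8 and 526.8 CPM in control and 288.8, 427, 505.5 and 486 in the double knockout. Atp5c1 was at 663.2, 697.7, 647.5 and 675 against 404.6, 627.6, 634.2 and 641.3 CPM, and all 4 double-knockout libraries lay below the lowest control, double knockout 2 to 4 by little. Without double knockout 1 the median over the members was -0.13. That library also had low slow-fibre markers, with a mean of -1.59 on the same scale against -0.12 to -0.26 in the other 3, low endothelial (-0.81) and pericyte (-1.10) markers and high macrophage markers (1.21). The part of these in its low subunit levels was not tested.

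For the 2 members of each complex with the highest level per length, the soleus changes were -0.30 for Uqcr10, -0.24 for Uqcrfs1, -0.30 for Cox6a2, -0.29 for Cox8b, -0.25 for Atp5a1 and -0.17 for Atp5b. None passed edgeR's test. Against the Acvr1b knockout 0 of 41 were called by edgeR (15 at an unadjusted p under 0.05; 0.127% of all genes), and against the Tgfbr1 knockout 0 (0 at an unadjusted p under 0.05; 0.0496% of all genes). DESeq2 called 0 in both.

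The difference of the double-knockout effect between muscles was tested directly. By edgeR 0 of 41 members were called (0.732% of all genes), 0 had an unadjusted p under 0.05, the smallest adjusted p was 0.731 (Cox8a), and the median difference was -0.003. The fall in gastrocnemius is therefore not shown to differ from the change in soleus, where 0 members passed. Cox6a2 and Cox8b had differences of -0.26 and -0.21, each more negative in soleus, with edgeR adjusted p = 0.7971 and 0.8642. DESeq2 called 0. The difference of each single-knockout effect between muscles was called by edgeR for 0 of 41 members and 0% of all genes, with 0 members at an unadjusted p under 0.05 and 0 by DESeq2.

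Between muscles of the control mice, 35 of 41 members were higher in soleus and 0 were lower (85.4%; 40.4% of all genes were called and 20.5% were higher). The median was 0.487 on the log2 scale, against 0.067 over all genes, and 36 members did not overlap (19.3% of all genes were higher without overlap). The count was 7 of 8 in complex III, 15 of 16 in complex IV and 13 of 17 in ATP synthase. The 2 muscles come from the same 4 mice, and with the animal as a block 38 members passed.

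**Figure D3:**
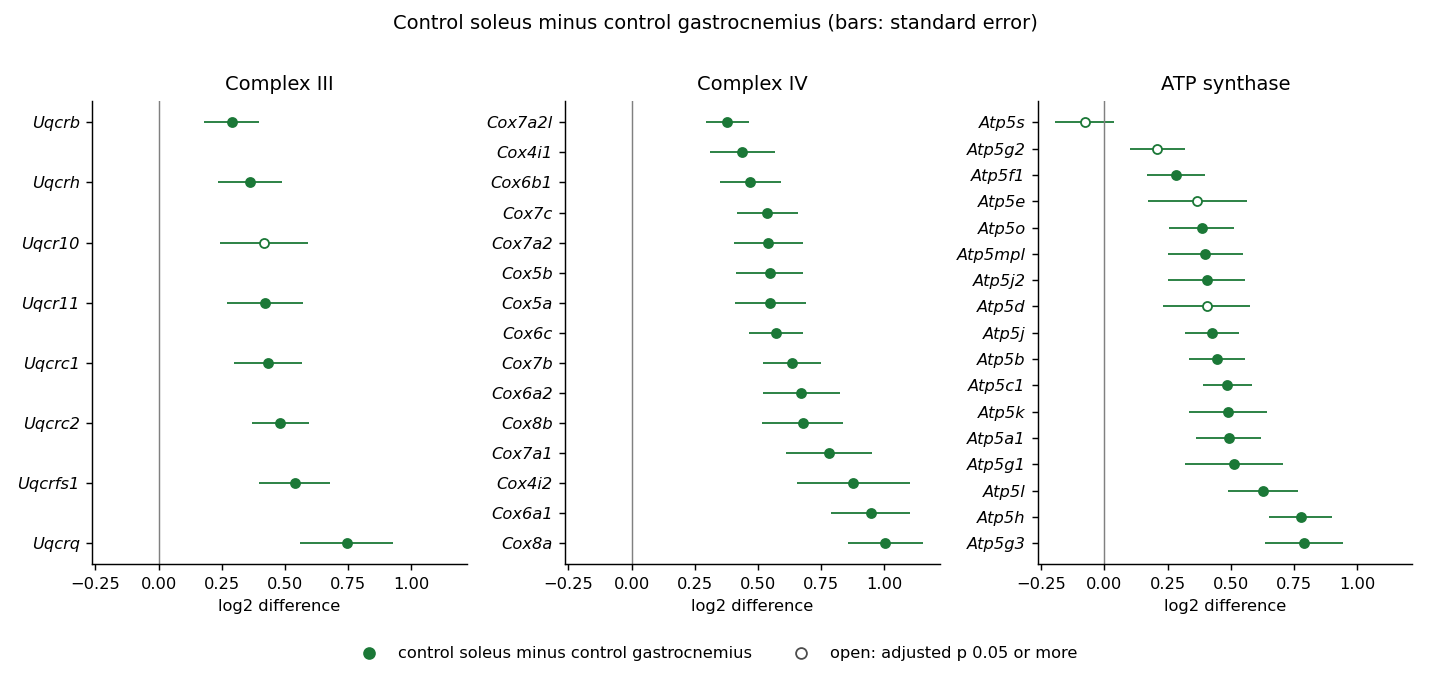
Log2 difference between soleus and gastrocnemius of control mice for each tested member, grouped by complex, with standard errors; filled points passed the test and Cox6b2 is left out because of its very low level. Nearly all members lie above 0, and Cox8a and Cox6a1 have the largest called differences, 1.00 and 0.95.

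Complex IV held the largest differences. Cox8a was at 7.67, 12.7, 10.8 and 11.5 CPM in control gastrocnemius and 20.4, 20.01, 25.2 and 19.9 in soleus, a difference of 1.00 (SE 0.147, edgeR adjusted p = 2.63e-06). Cox6a1, the general form of subunit VIa, was at 5.91 to 9.58 CPM over the gastrocnemius libraries and 12.92 to 19.002 in soleus (0.95). The muscle form Cox7a1 was at 80.4 to 122 and 170 to 203 CPM (0.78, SE 0.169, edgeR adjusted p = 0.000461), Cox8b at 114 to 198 and 247 to 316 CPM (0.68) and Cox6a2 at 305 to 355 and 463 to 620 CPM (0.67). None of these genes overlapped between muscles. Cox4i1 (0.44) lost its call without gastrocnemius control 1, and Cox6b2 (1.35, edgeR adjusted p = 0.05263) passed with the animal block or without gastrocnemius control 3, soleus control 1 or soleus control 2.

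In ATP synthase the c-ring gene Atp5g3 was at 216, 348, 306 and 366 CPM in gastrocnemius and 519, 529, 541 and 548 in soleus (0.79, edgeR adjusted p = 0.000144), and Atp5h at 164 to 197 and 307 to 322 CPM (0.78). Atp5l, subunit g, differed by 0.63 and Atp5g1 by 0.51 (edgeR adjusted p = 0.03582), the latter lost without gastrocnemius control 1 or 3 or soleus control 2, 3 or 4. Atp5g2, Atp5d, Atp5e and Atp5s did not pass, Atp5g2 with 0.21 and Atp5s with -0.08. In complex III Uqcrq, a small subunit, was at 78.1, 149, 129 and 156 CPM in gastrocnemius and 194, 194, 254 and 216 in soleus (0.74, SE 0.184, edgeR adjusted p = 0.001727). Uqcrfs1 (0.54), Uqcrc2 (0.48) and Uqcrc1 (0.43) also passed, Uqcrc1 not without gastrocnemius control 1, and Uqcr10 did not (edgeR adjusted p = 0.05426).

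Cyc1 (0.59) and Ndufa4 (0.41) were also higher in soleus. For the lists that follow, 40.4% of all genes were called between these muscles and 20.5% were higher in soleus. Of 6 complex III assembly factors 3 were lower (Ttc19, Uqcc2 and Uqcc3), and of 22 complex IV assembly factors 4 were higher and 2 lower. Of the 6 mitochondrially encoded subunits 0 were higher and mt-Atp8 was lower. Of 12 regulators Esrrg (1.59) and Ppara (0.91) were higher and Yy1 lower. All 6 slow-fibre genes were higher and 5 of 6 fast-fibre genes lower, 6 of 6 adipocyte and 4 of 6 endothelial markers were higher, and markers of pericytes and vascular smooth muscle were higher in 4 and lower in 1 of 9. In the double-knockout mice 33 of 41 members were higher in soleus and 0 lower (39.7% of all genes were called and 21.6% were higher), with a median of 0.53. The number called there ran from 27 to 36 with 1 library left out.

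Ratios of isoforms within a library compare genes that encode the same subunit. For Cox6a2, Cox7a1 and Cox8b the ratio sets the muscle form against its general form. The log2 ratio of Cox6a2 to Cox6a1 was 5.30 ± 0.194 in control gastrocnemius (SD, n = 4) and 5.32 ± 0.137 in the double knockout (difference 0.019, exact permutation test, adjusted p = 0.914 over 7 ratios). That of Cox8b to Cox8a was 3.93 ± 0.108 and 3.72 ± 0.266 (difference -0.213, exact p = 0.171, adjusted 0.4). That of Cox7a1 to Cox7a2 was 0.106 ± 0.087 and -0.011 ± 0.077 (exact p = 0.114). The c-ring ratios differed by 0.012 for Atp5g1 to Atp5g3 and -0.005 for Atp5g2 to Atp5g3. None of the 7 ratios had an adjusted p under the threshold in either muscle. With 4 against 4 libraries the smallest p this test can give is 0.0286. After adjustment over 7 ratios, 1 ratio alone could not pass even at that p, so the test could not show a shift of a single ratio.

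**Figure D4:**
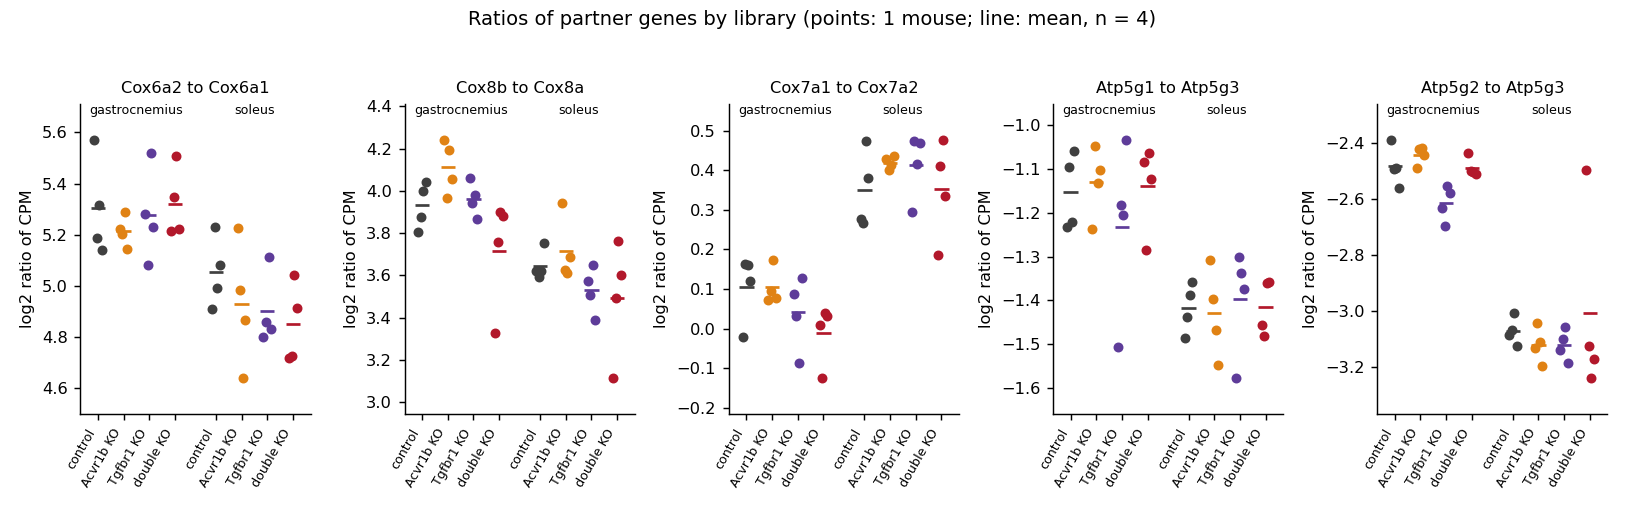
Log2 ratio of Cox6a2 to Cox6a1, Cox8b to Cox8a, Cox7a1 to Cox7a2, Atp5g1 to Atp5g3 and Atp5g2 to Atp5g3 in each library, by group; points are mice and lines are group means. Differences between muscles are clearest for Atp5g2 to Atp5g3, with a control mean of -2.48 in gastrocnemius and -3.07 in soleus.

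Between the muscles of control mice 4 ratios did not overlap. Relative to their partners, Cox7a1 was higher in soleus (difference 0.244), and Cox8b (-0.284), Atp5g1 (-0.266) and Atp5g2 (-0.591) were lower. Each had an exact sign-flip p of 0.125 over the 4 mice, which is the smallest that 4 pairs can give, and an adjusted p of 0.219. The edgeR differences within these pairs were 1.00 for Cox8a and 0.68 for Cox8b, and 0.79 for Atp5g3 and 0.21 for Atp5g2.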

How the data were processed

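The deposited values are estimated counts: per the file headers, the authors ran featureCounts 2.0.1 over the Ensembl 102 annotation of GRCm38, with reads assigned by strand (setting 2) and reads of several alignments shared as fractions. Trimming with cutadapt, alignment with HISAT2 and the use of FastQC 0.11.9 and DESeq2 come from the submitters' processing notes. Symbols came from GENCODE M21 for 55227 of 55487 identifiers. Of the 44 members, 23 had fractional counts in at least 16 libraries. The members and all gene lists were chosen with earlier results of these data known.

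The estimated counts were rounded to whole numbers. Genes were kept by filterByExpr (17536 in gastrocnemius, 18143 in soleus, 18726 in the fit of both), scaled by TMM and tested with edgeR 4.0.16 (R 4.3.3; robust quasi-likelihood test, 2-sided) with Benjamini-Hochberg adjustment over all genes tested and a call at 0.05. Each muscle had its own fit of 16 libraries, and all 32 were fitted together between muscles. Levels are CPM, and scores are means of log2 CPM with a prior count of 2. Isoform ratios used a pseudocount of 0.5 CPM and an exact permutation test, 2-sided, with an exact sign-flip test between muscles. The tests were checked on simulated data with known changes.

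Members named with every library value were up to 4 called members of each complex by size of change, with at least 5 CPM, and where none was called the 2 of highest level per length. The isoform pairs were always named. Cox6c, Cox5b, Atp5f1 and Atp5s, and the libraries left out together, were chosen after their values were seen. Depth ran from 16535498 to 54456977 counts, and edgeR's common coefficient of biological variation was 0.15 for gastrocnemius and 0.218 for soleus. The animal number joins the 2 muscles of a mouse, and their deviations correlated by 0.034 to 0.579, with 11 of 16 mice over 0.1. Alternatives were DESeq2 1.42.0 with its own size factors, other scalings, no filter on low counts, only the compared groups, replicate blocks, other pseudocounts and each library left out.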

Additional observations from a re-analysis of the deposited data

Results flagged for a closer look

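The samples below lay far from the other 3 of their group, by the gap to the nearest library over the whole range of the group. Of 191 groups of 4 values tested, 29 had such a sample, where chance gives about 1 in 20, and values of different members from 1 library are not independent. Most came from 3 soleus libraries.

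Soleus Acvr1b knockout 1 was high. Its mean over the members, relative to control, was 0.331 for complex III, 0.392 for complex IV and 0.313 for ATP synthase. The messages that stood apart in it were Atp5g3 (642.71 CPM), Atp5h (438.6), Atp5o (261.83), Cox4i1 (815.39), Cox5a (558.9), Cox6b1 (426.91), Cox7a1 (257.05), Cox7a2 (190.95), Cox7b (429.1), Cox8b (389.82) and Uqcrh (355.77). It was the highest of its group for 37 of 41 members. Its fibroblast marker score was -1.737, its macrophage score -1.289 and its slow-fibre score 0.311, and their part in the subunit levels was not tested.

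Soleus double knockout 1 was the lowest of its group for nearly all members. The messages that stood apart in it by this rule were Atp5c1 (404.62 CPM), Atp5h (183.32), Atp5o (106.37), Cox6a1 (10.48), Cox7a2l (54.12) and Cox7b (192.46). Soleus Tgfbr1 knockout 1 was low, with a complex IV mean of -0.232 and low levels of Atp5g1 (155.97 CPM), Atp5g3 (466.17), Cox6a2 (417.29) and Cox7a1 (144.25).

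Single values also stood apart. Atp5g2 was low in gastrocnemius Acvr1b knockout 1 (53.82 CPM). Cox4i2 (2.99 CPM) and Cox8a (25.24 CPM) were high in soleus control 3. Uqcrb was high in gastrocnemius control 1 (165.99 CPM).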

How the results depend on the processing

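The number of members that passed in double-knockout gastrocnemius against control (13) ran from 10 to 27 with 1 library left out and was 27 with gastrocnemius control 1, double knockout 1 and Tgfbr1 knockout 1 left out together, an alternative chosen after seeing the data. Among the 17 tested members with whole counts in at least 17 libraries 17.6% passed, all lower, against 32.5% of all 40. Over all genes 20.9% passed in either direction and 9.59% were lower. Against the Acvr1b knockout (8) the count ran from 5 to 8 with 1 library left out, was 16 without the 3 libraries and 23 with only the compared groups. Against the Tgfbr1 knockout (8) it ran from 6 to 15, and was 20 without the 3 libraries. For additivity in gastrocnemius (0) DESeq2 called 1 and the fit without the 3 libraries 2. With the replicate number as a block, the counts for the double knockout against control were 14 in gastrocnemius and 0 in soleus, against 13 and 0 without it. Between the muscles of control mice the block was the animal, and the count was 38 with it and 35 without it. Without the block it ran from 27 to 35 with 1 library left out. Within a muscle equal numbers did not pair the samples: 2 of 12 correlations were over 0.1 in gastrocnemius and in soleus.

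In gastrocnemius, the double-knockout change of Cox6a1 ran from -0.2088 to 0.0075 and that of Cox6a2 from -0.0853 to 0.0337 with 1 library left out (0.0075 without control 4, 0.0337 without double knockout 1), and that of Cox8a was -0.0707 without the 3 libraries. None of these passed. The double-knockout differences of small isoform ratios changed sign with 1 library left out. Their ranges were -0.015 to 0.061 in gastrocnemius and -0.019 to 0.026 in soleus for Atp5g1 to Atp5g3, and -0.032 to 0.027 and -0.109 to 0.14 for Atp5g2 to Atp5g3. They were -0.077 to 0.12 and -0.053 to 0.18 for Cox4i2 to Cox4i1, -0.043 to 0.108 for Cox6a2 to Cox6a1 in gastrocnemius, and -0.039 to 0.059 for Cox7a1 to Cox7a2 in soleus. With a pseudocount of 0.1 CPM the Cox4i2 ratio was -0.121 in gastrocnemius and -0.041 in soleus, the Cox6b2 to Cox6b1 ratio was -0.094 in soleus, and between muscles it was 0.357. With 2 CPM the Cox4i2 ratio between muscles was -0.099. The cause of these shifts was not tested. Of the other values, 457 for comparisons and 1207 for single genes kept their direction and side of the threshold, 60 for single genes no longer passed and 20 newly passed. Members near 1 CPM, such as Cox4i2 and Cox6b2, are limited by depth.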
